A study of Mus musculus with 6 samples.

Results

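The genes described here sense oxygen and answer to it: Hif1a and Epas1, the oxygen-regulated alpha subunits of the hypoxia-inducible factors (HIFs), their constant partner Arnt, the prolyl hydroxylases Egln1, Egln2 and Egln3, the asparaginyl hydroxylase Hif1an, and Vhl. They were chosen by symbol: every array feature (a probe, named here by its feature number where a gene has several) whose annotation gave exactly 1 gene symbol equal to 1 of these 8. All 8 genes were measured, by 10 of the 36227 probes on the array. Hif1an had 3 probes and each of the other 7 genes had 1.

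The study hybridised total RNA from mouse 3T3-L1 adipocytes, fat cells made from a preadipocyte line with an adipogenic mixture, to 1-colour CodeLink whole genome arrays. Cells were taken 10 days after differentiation. Control cells (3 arrays) carried only the Tet-off plasmid, and the others (3 arrays) expressed uncoupling protein 1 (UCP1), the mitochondrial carrier that lets protons re-enter the matrix without ATP being made. The labels do not say whether the lines were clones or pools, how the UCP1 construct was regulated, or whether replicate arrays hold RNA of separate cultures. The p-values therefore cover array-to-array spread alone, and this may be technical.

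HIF alpha subunits are made continuously and, in the presence of oxygen, destroyed. Egln enzymes use oxygen, iron and oxoglutarate to hydroxylate prolines of the alpha subunit, Vhl binds the hydroxylated form and brings it to a ubiquitin ligase, and Hif1an hydroxylates an asparagine that blocks the binding of coactivators. When hydroxylation slows, the alpha subunit pairs with Arnt and binds DNA at short elements built on the letters ACGTG or GCGTG, and Egln1 and Egln3 are themselves among the genes that HIF induces. This control acts on the protein, so the RNA levels below do not measure HIF protein or its activity.

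Of these 8 genes, the RNA of Egln1, Egln3 and Vhl fell in UCP1 cells, and the other 5 did not pass the test. That was 3 of 10 probes, where 2.83% of all tested probes passed in either direction. For the 3 that fell, the 250 bases before the transcription start are shown, from RefSeq's GRCm38.p6, read 5′ to 3′ on the gene's strand, because they show whether the letters a HIF dimer binds stand close to the start. Capitals mark each ACGTG or GCGTG, searched on both strands. Egln1 lies on the minus strand (chr8:124949255-124949504), Egln3 on the minus strand (chr12:54203875-54204124) and Vhl on the plus strand (chr6:113623744-113623993).
Egln1: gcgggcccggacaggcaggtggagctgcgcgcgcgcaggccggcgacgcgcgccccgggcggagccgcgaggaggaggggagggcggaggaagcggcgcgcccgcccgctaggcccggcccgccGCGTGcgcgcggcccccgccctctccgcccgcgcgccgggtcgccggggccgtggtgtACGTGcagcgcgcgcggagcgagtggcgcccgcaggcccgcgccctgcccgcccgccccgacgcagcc
Egln3: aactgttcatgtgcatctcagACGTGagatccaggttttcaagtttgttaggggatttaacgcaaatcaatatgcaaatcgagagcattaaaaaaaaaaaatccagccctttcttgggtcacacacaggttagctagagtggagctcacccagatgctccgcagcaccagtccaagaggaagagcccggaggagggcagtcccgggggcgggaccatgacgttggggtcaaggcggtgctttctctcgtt
Vhl: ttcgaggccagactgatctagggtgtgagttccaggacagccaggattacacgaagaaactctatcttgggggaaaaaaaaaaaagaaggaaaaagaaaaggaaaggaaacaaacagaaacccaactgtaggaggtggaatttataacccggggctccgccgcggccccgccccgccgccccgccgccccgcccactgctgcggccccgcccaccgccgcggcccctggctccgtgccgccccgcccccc
Egln1 held 1 ACGTG, at 68 to 64 bases before the start, and 1 GCGTG, at 126 to 122 bases. Egln3 held 1 ACGTG, at 229 to 225 bases, and Vhl held 0 matches in this window. Of 32851 promoter windows of the same 250 bases, 38.6% held at least 1 of these motifs, 16.6% an ACGTG and 28.2% a GCGTG. These shares were not matched for base content, and G or C made up 86% of the Egln1 window, 50.8% of Egln3 and 62% of Vhl. The letters CACGTG, which other factors bind and which read as ACGTG on both strands, stood in 6.02% of windows. Sequences were found for 7 of the 8 genes, with 8 windows since Egln2 has 2 starts, and 6 of the 8 windows held a match. Among genes that did not pass the expression test, Egln2 held 4 matches before its first start and 1 before its second, Hif1a held 3 (2 of them the same CACGTG read on each strand), Arnt held 1 and Hif1an held 0. A match describes these letters only.

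**Figure D1:**
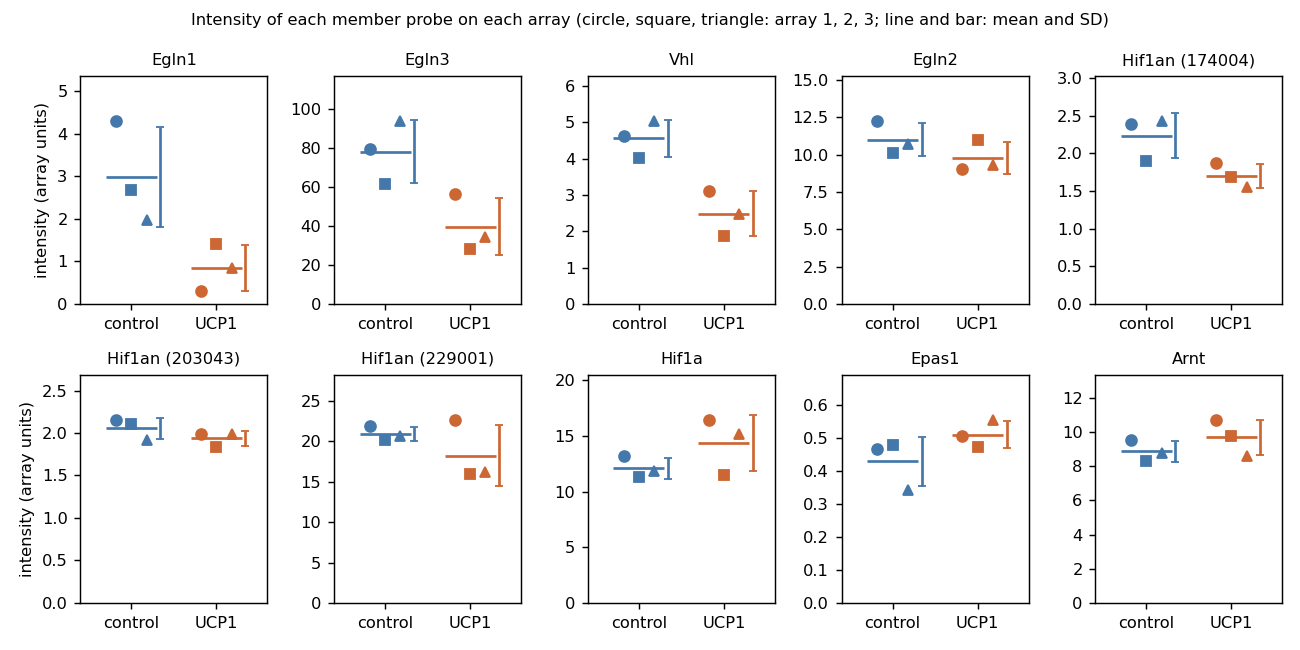
Spot intensity (linear, in the array units of the deposited values, axes from 0) of each of the 10 probes on the 3 control and 3 UCP1 arrays, with the group mean and SD (n = 3). Egln1, Egln3, Vhl and Hif1an probe 174004 lie lower on every UCP1 array than on every control array, and the groups of the other 6 probes overlap; 14% of all tested probes lie wholly lower in UCP1.

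Egln1, the main oxygen-dependent brake on HIF alpha in most cells, read 4.29, 2.67 and 1.98 on control arrays 1, 2 and 3 and 0.297, 1.40 and 0.838 on UCP1 arrays 1, 2 and 3. The groups did not overlap, and UCP1 array 1 was the lowest. In the order of all probes of an array, the Egln1 probe stood above 71.3%, 65.8% and 61.5% of probes on the control arrays and above 24.3%, 55.7% and 45.5% on the UCP1 arrays. The log2 difference was -2.01 ± 0.451 (SE, 95% confidence interval -3.00 to -1.02; limma across all 36116 tested probes, adjusted p = 0.0385), or 4.03-fold lower. The values carried no detection mark, and the reading of 0.297 on UCP1 array 1 is so dim that it cannot be told from background, so the size of the fall rests in part on a value of uncertain level. Of the 10 probes Egln1 varied most among replicates, with an SD of 39.7% of the mean in controls and 65.2% in UCP1. The difference was -1.39 without UCP1 array 1 (adjusted p = 0.0388), and adding 0.171 to every intensity before the log2 step gave -1.74. The call was lost without control array 1, at -1.71 (limma, adjusted p = 0.132), without control array 2, at -2.05 (adjusted p = 0.0768), and without UCP1 array 3, at -2.14 (adjusted p = 0.159).

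Egln3, the paralog that HIF induces most strongly in many cells, was the brightest of the 10 probes. It read 79.6, 61.4 and 93.6 on the control arrays and 56.4, 28.2 and 34.5 on the UCP1 arrays. The groups did not overlap, but the highest UCP1 array (UCP1 1) lay near the lowest control array (control 2). The fall was 2.03-fold, a log2 difference of -1.02 ± 0.232 (SE, 95% confidence interval -1.53 to -0.51; limma, adjusted p = 0.0406). It was -1.30 without UCP1 array 1 (adjusted p = 0.00742). The call was lost without control array 1, at -0.997 (limma, adjusted p = 0.124), control array 3, at -0.88 (adjusted p = 0.108), UCP1 array 2, at -0.80 (adjusted p = 0.0554), and UCP1 array 3, at -0.95 (adjusted p = 0.201).

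Vhl, the receptor of the ligase that marks hydroxylated HIF alpha, read 4.62, 4.02 and 5.03 on the control arrays and 3.12, 1.88 and 2.47 on the UCP1 arrays. No UCP1 array reached the lowest control array. The fall was 1.86-fold, a log2 difference of -0.90 ± 0.177 (SE, 95% confidence interval -1.28 to -0.51; limma, adjusted p = 0.0226), the smallest p of the 10 probes. The call was lost without control array 1, at -0.88 (limma, adjusted p = 0.0758), control array 3, at -0.82 (adjusted p = 0.0637), and UCP1 array 3, at -0.91 (adjusted p = 0.133).

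Of these 3 calls, 2 depended on the scaling between arrays. The arrays as deposited had medians of 1.04 to 1.05, but the 99th percentile of intensity was 255 to 279 on control arrays and 185 to 225 on UCP1 arrays. After quantile normalization Vhl still passed, at -0.83 (limma, adjusted p = 0.0377), while Egln3, at -0.84, and Egln1, at -1.98, did not (adjusted p = 0.0555 and 0.0709). Cyclic loess normalization likewise left Vhl called, at -0.84 (adjusted p = 0.0297), and Egln3 and Egln1 not (adjusted p = 0.0618 and 0.0709). All 3 calls were lost with limma without its intensity trend, which lets the assumed spread vary with brightness (adjusted p = 0.265 for Vhl, 0.296 for Egln3 and 0.302 for Egln1). There 0 of all probes passed, with 4951 at an unadjusted p under 0.05.

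**Figure D2:**
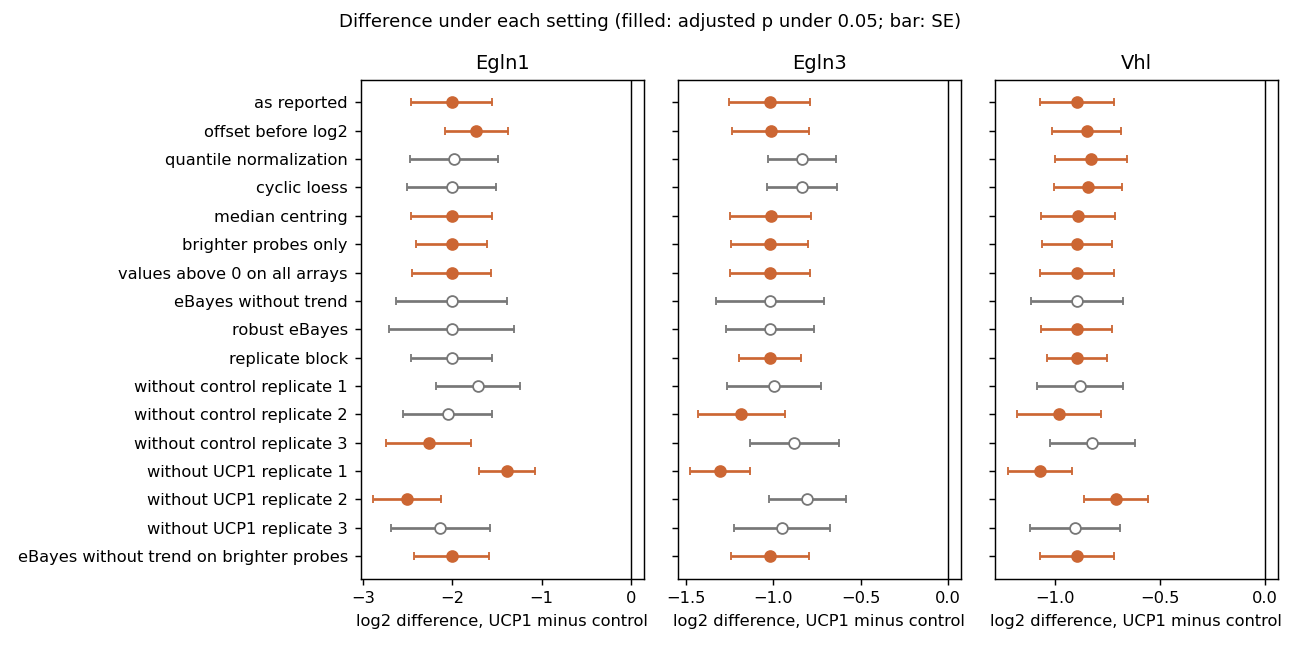
Log2 difference (UCP1 minus control) of Egln1, Egln3 and Vhl under each processing setting and with each array left out, with the SE as bar; filled points passed an adjusted p of 0.05. Every point lies below 0, and Vhl kept its call under 12 of 16 alternatives against 8 each for Egln1 and Egln3; 1 of the 16, the brighter probes without trend, was chosen after seeing the data, and Egln1 counts as a brighter probe through its control values.

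Of the 36116 tested probes, those that passed and were lower in UCP1 made up 2.03% and those higher 0.8%, a balance that turned after quantile normalization (732 lower and 289 higher, against 446 lower and 567 higher). Of the 10 probes of oxygen sensing genes, 3 passed, all lower. Groups lay apart, with UCP1 lower, for 4 of the 10, against 14% of all tested probes, and with UCP1 higher for 0, against 7.88%. The median log2 difference was -0.19 for the 10 probes and -0.06 for all tested probes.

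Hif1an, which blocks coactivator binding, had 3 probes of unequal brightness. Probe 174004, annotated to the RefSeq transcript, read 2.39, 1.89 and 2.42 on control arrays and 1.87, 1.68 and 1.55 on UCP1 arrays, so the groups lay apart by a narrow margin. Its difference of -0.39 ± 0.154 (SE) did not pass (limma, adjusted p = 0.211). Probe 229001, the brightest of the 3, read 21.9, 20.2 and 20.6 on control arrays and 22.6, 16.0 and 16.2 on UCP1 arrays. Its groups overlapped through UCP1 array 1, the highest of all 6. Its difference was -0.22 ± 0.142 (SE, adjusted p = 0.493), and -0.38 without UCP1 array 1 (limma, adjusted p = 0.0439). Probe 203043 read 2.15, 2.11 and 1.91 against 1.98, 1.84 and 1.99, with a difference of -0.09 ± 0.135 (SE, adjusted p = 0.8). The 3 probes thus shared a direction without a call, and their 95% confidence intervals ran from -0.73 to -0.06, from -0.52 to 0.09 and from -0.38 to 0.21.

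Egln2, the prolyl hydroxylase that HIF does not induce, read 12.2, 10.1 and 10.7 on control arrays and 9.02, 11.0 and 9.33 on UCP1 arrays. The groups overlapped. Its difference was -0.17 ± 0.123 (SE, adjusted p = 0.53; limma), with a 95% confidence interval of -0.44 to 0.10 that excludes a fall as large as the estimates for its 2 paralogs.

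The HIF subunits themselves were measured slightly higher in UCP1 cells, with overlapping groups and no call. Hif1a, the alpha subunit present in nearly all cells, read 13.2, 11.3 and 11.9 on control arrays and 16.4, 11.5 and 15.1 on UCP1 arrays, where UCP1 array 2 stood inside the control range. Its difference was 0.23 ± 0.141 (SE, 95% confidence interval -0.07 to 0.54; limma, adjusted p = 0.45). Arnt, the beta subunit that does not respond to oxygen, read 9.53, 8.32 and 8.77 against 10.7, 9.76 and 8.61, a difference of 0.12 ± 0.119 (SE, 95% confidence interval -0.14 to 0.38; adjusted p = 0.661).

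Epas1, the alpha subunit best known from endothelium and also described in fat, was the dimmest of the 10 probes. It read 0.467, 0.478 and 0.343 on control arrays and 0.506, 0.473 and 0.553 on UCP1 arrays, above 28.2% to 37.0% of the probes of an array. Its difference of 0.26 ± 0.272 (SE, 95% confidence interval -0.33 to 0.86; limma, adjusted p = 0.683) leaves a wide range. Like the Egln1 reading on UCP1 array 1, which was dimmer still, levels this low cannot be told from background. In this adipocyte line all 7 endothelial markers (Pecam1, Cdh5, Kdr, Tek, Tie1, Flt1 and Emcn) lay below the array median on every array. A link between that and the Epas1 reading was not tested.

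**Figure D3:**
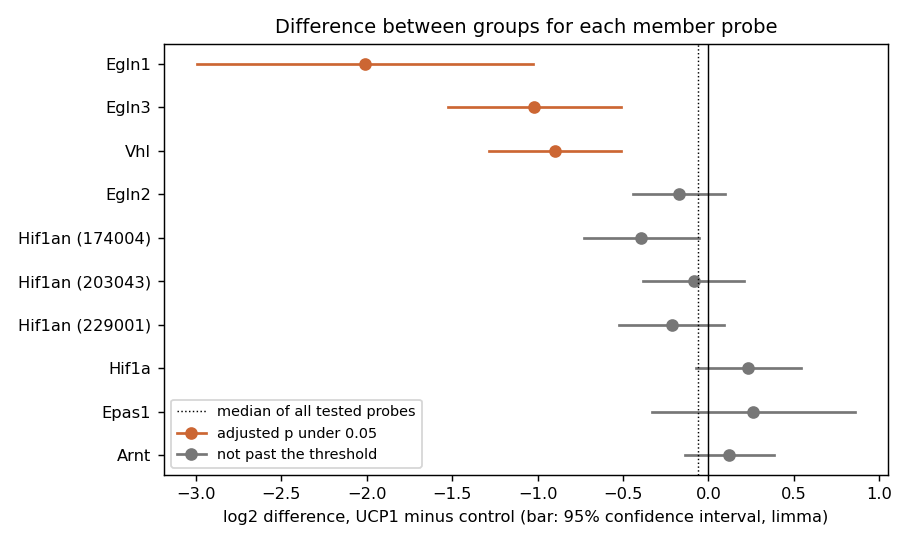
Log2 difference (UCP1 minus control) of each of the 10 probes with its 95% confidence interval from limma; orange marks an adjusted p under 0.05 and the dotted line the median of all tested probes. Egln1, Egln3 and Vhl lie at -2.01, -1.02 and -0.90 and the other 7 between -0.39 and 0.26.

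Ratios between genes on the same array do not depend on how arrays are scaled to each other by 1 factor. These arrays, however, differed in the 99th percentile of intensity and not in the median. Ratios between probes of unlike brightness can still carry such a difference. For 9 pairs, chosen after the values were seen, the change of such a ratio was tested over arrays by a two-sided exact permutation test, whose smallest possible p with 3 arrays a group is 0.1. Vhl relative to Hif1a changed by -1.13 ± 0.114 (SE) on the log2 scale, the pair with the smallest error. It lay at -0.98, -1.20 and -1.20 on the UCP1 arrays, against -0.10 to 0.17 on the control arrays, whose mean was set to 0 (exact p = 0.1, and 0.18 adjusted over the 9 pairs). Relative to Hif1a, Egln3 changed by -1.25 ± 0.243 (SE), Egln1 by -2.24 ± 0.844 (SE) and Hif1an probe 229001 by -0.45 ± 0.128 (SE), each with separate groups and the same exact p-values. Taken by itself, Hif1an probe 229001 had overlapping groups. Hif1a was measured higher by 0.23, which is part of each change relative to it. Arnt relative to Hif1a changed by -0.11 ± 0.169 (SE, exact p = 0.7, adjusted 0.787) and Epas1 relative to Hif1a by 0.03 ± 0.198 (SE, exact p = 0.9).

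Among the Egln paralogs, Egln1 relative to Egln2 changed by -1.84 ± 0.642 (SE, exact p = 0.1, adjusted 0.18), with UCP1 arrays at -2.97, -1.02 and -1.52. Egln3 relative to Egln2 changed by -0.85 ± 0.406 (SE), with overlapping groups (exact p = 0.2, adjusted 0.3). Egln1 and Egln3 did not follow each other within the UCP1 group. Egln1 relative to Egln3 lay at -2.80, 0.43 and -0.60 on UCP1 arrays 1, 2 and 3, so that UCP1 array 1 had the lowest Egln1 and the highest Egln3 and Vhl of its group, while UCP1 array 2 had the highest Egln1 and the lowest Egln3 and Vhl. The change of that ratio, -0.99 ± 1.04 (SE), did not stand out from the spread (exact p = 0.6, adjusted 0.771).

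The genes whose profile over the 6 arrays was most like that of Egln1 are given as a description, since a choice by likeness over all arrays fixes that they share its highs and lows. Likeness was the root mean square distance between log2 values centred on each probe's mean, over 12062 named probes at or above the median level. The 5 closest genes were Stard7, a carrier of phosphatidylcholine, at a distance of 0.24, Pygm, the muscle glycogen phosphorylase, at 0.249, the pyruvate kinase Pkm at 0.373, Ctnnb1, the beta-catenin of adhesion and Wnt signalling, at 0.474, and the endocytic adaptor Eps15 at 0.476. Stard7 read 10.2, 6.90 and 5.86 on control arrays and 1.17, 4.43 and 2.79 on UCP1 arrays. Each of the 5, like Egln1, was highest on control array 1 and lowest on UCP1 array 1. Their log2 differences were -1.61 for Stard7, -1.56 for Pygm, -1.98 for Pkm, -1.16 for Ctnnb1 and -1.15 for Eps15. Those of Pygm, Ctnnb1 and Eps15 did not pass the test (limma, adjusted p = 0.0726, 0.135 and 0.107). Of 18058 probes at or above the median level, 13 lay within 0.5 of the Egln1 profile.

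**Figure D4:**
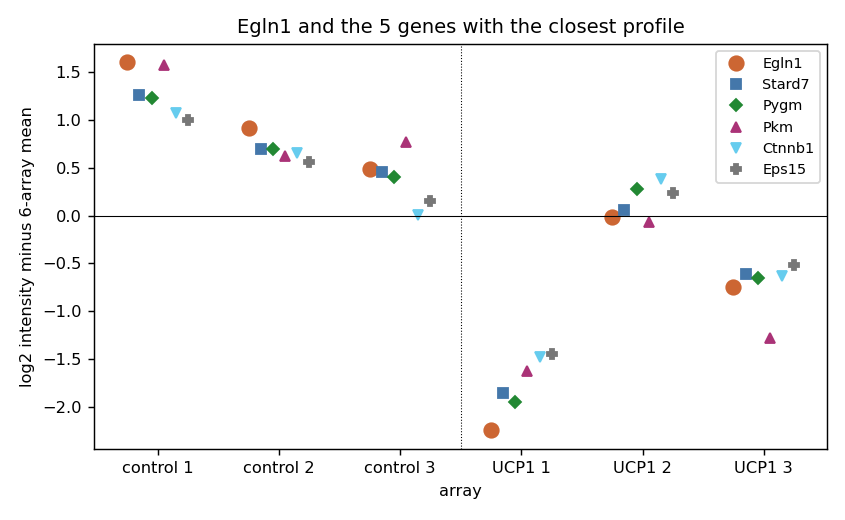
Log2 intensity minus the probe's mean over 6 arrays (vertical) for Egln1 and the 5 genes with the closest profile, by array (horizontal). All 6 genes are highest on control array 1 and lowest on UCP1 array 1, as the choice by likeness favours, and there Egln1 lies at -2.25 and the others between -1.95 and -1.44.

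Other genes of the pathway were read from 3 lists, each gene by its brightest probe, with 2.92% of all 18014 genes called lower and 1.13% higher. Of 28 measured HIF partners and regulators, 1 fell and 1 rose, with a median of -0.07 (0.06 after quantile normalization) against -0.08 for all genes. Stub1, a chaperone-linked ubiquitin ligase that can act on HIF alpha without hydroxylation, read 30.9, 26.5 and 23.9 on control arrays and 17.3, 18.4 and 17.9 on UCP1 arrays, a log2 difference of -0.59 ± 0.122 (SE; limma, adjusted p = 0.0271). Ahr, the dioxin receptor, which also pairs with Arnt, read 0.728, 0.653 and 0.845 against 1.20, 1.45 and 1.29, a difference of 0.83 ± 0.186 (SE, adjusted p = 0.038). Its control readings lay below the array median, so the size of this rise rests in part on dim values. The Stub1 call was lost after quantile normalization (limma, adjusted p = 0.0758) and without control 1 (0.127), control 2 (0.0915) or UCP1 3 (0.132). The Ahr call was lost without control 1 (0.11), control 2 (0.12), control 3 (0.0516), UCP1 2 (0.0685) or UCP1 3 (0.163). It was also lost with the replicate number as a block (limma, adjusted p = 0.0666). Without the intensity trend both calls were lost (0.254 for Stub1 and 0.221 for Ahr).

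No other measured gene listed with the ligase that Vhl works in passed the test. Of 12 listed genes 9 were measured, while Elob, Cul5 and Ube2m were not. The 9 include the adaptor Eloc, the scaffold Cul2 and the ring protein Rbx1. They also include genes that act around the ligase, such as Nedd8 and Cand1. The median of the 9 was -0.12, which turned to 0.07 after quantile normalization. Of these 9, 0 passed (limma), with 2 at an unadjusted p under 0.05 (as were 20.8% of all genes). Those 2 were the ubiquitin-conjugating enzymes Ube2d3, at -0.35 ± 0.12 (SE, adjusted p = 0.155), and Ube2d1, at -0.31 ± 0.136 (SE, adjusted p = 0.276).

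Genes known as HIF targets were mostly lower. Of 42 measured, Egln1 and Egln3 not among them, 12 fell and 1 rose (limma), with a median of -0.51 and 83.3% below 0, against 60.1% of all genes. After quantile normalization the median was -0.31, with 33 of 42 below 0. Ero1a, an oxidase of disulphide formation, fell by 1.48 on its brightest probe, Mxi1, an antagonist of Myc, fell by 1.47, the carbonic anhydrase Car9 fell by 1.44 and the transcription factor Bhlhe40 fell by 1.43 on the log2 scale (adjusted p = 0.00271, 0.00126, 0.00193 and 0.00169). Car9 read 7.63, 5.20 and 8.56 on control arrays and 2.80, 2.29 and 2.64 on UCP1 arrays, with a wide gap between groups. Lox, the 1 target gene that rose, read 14.3, 12.0 and 12.3 on control arrays and 27.7, 24.3 and 23.3 on UCP1 arrays. Its difference was 0.97 ± 0.121 (SE; limma, adjusted p = 0.00217). Ero1a and Mxi1 each had 2 further, dimmer probes, which did not pass and lay at 0.13 and 0.26 for Ero1a and at -0.07 and 0.60 for Mxi1. The count of target genes that fell was 21 without UCP1 array 1, 6 without UCP1 array 3, 10 after quantile normalization and 0 without the intensity trend. Lower calls among all tested probes moved too, at 1610, 93, 446 and 0 in that order, against 732 as reported.

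**Figure D5:**
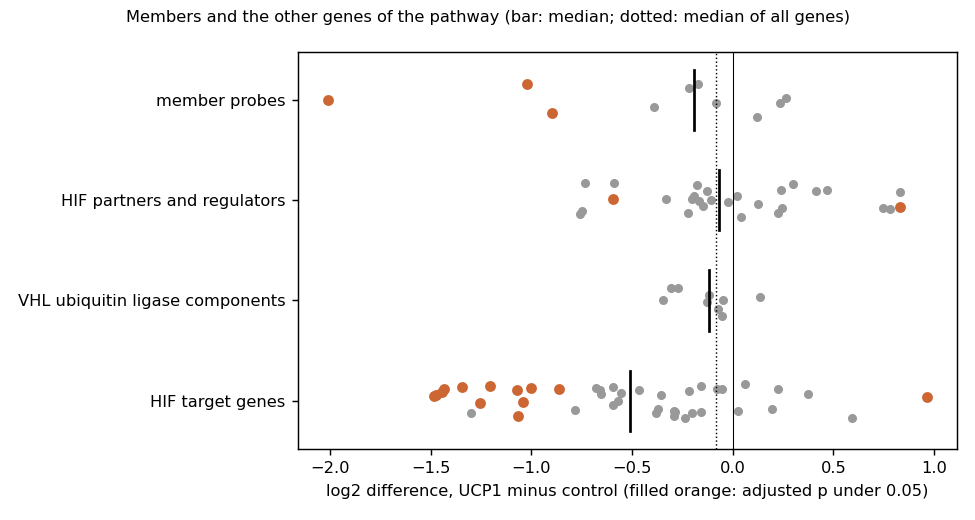
Log2 difference (UCP1 minus control) of the 10 probes and of the genes of 3 pathway lists, each gene by its brightest probe; orange marks an adjusted p under 0.05, bars the median and the dotted line the median of all genes (-0.08). The target genes, with a median of -0.51, hold 12 of the 13 lower calls among the 3 lists.

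As a check of the labels, Ucp1 was higher on every UCP1 array, at 2.34, 2.02 and 1.54 against 0.222, 0.232 and 0.277 in controls. Adipocyte markers were bright in both groups: the summed intensity of 6 of them, Adipoq and Fabp4 among them, was 3074 to 3524 on control arrays and 2544 to 3466 on UCP1 arrays, with 0 called (limma). That sum is carried by Adipoq, Fabp4, Lpl and Retn, the first 3 of which read close to the array maxima of 683 to 950 on some arrays, so it has little room to show a rise. Cebpa, an adipogenic transcription factor, had the largest difference of the 6, at -0.69 ± 0.248 (SE; limma, unadjusted p = 0.0167, adjusted p = 0.167), with 6.72, 4.33 and 3.50 on control arrays and 2.79, 4.01 and 2.16 on UCP1 arrays. Of 6 preadipocyte and fibroblast markers 3 rose, where 1.13% of all genes were called higher. Pdgfra had a log2 difference of 0.67 (limma, adjusted p = 0.0484), Thy1 of 0.80 (0.0319) and Lum of 0.90 (0.0286). Whether these 3 calls hold under other scaling or with an array left out was not tested. Dlk1, at 0.34, Col1a1, at -0.21, and Col3a1, at -0.06, did not pass. The summed intensity of the 6 ranged from 650 to 878 in controls and from 662 to 855 in UCP1. Col3a1 carried most of that sum, at 532 to 734 in controls and 511 to 669 in UCP1. Of 7 macrophage and leukocyte markers, 5 were measured and 1 rose, Lyz2 by 1.48 (limma, adjusted p = 0.00571). Ptprc, which all leukocytes carry, read at most 0.179 on any array. Cd14, however, read 9.99 to 14.4 over the 6 arrays and did not pass. The part of these markers in the falls of Egln1, Egln3 and Vhl was not tested, and in bulk RNA fewer cells of a type and less RNA per cell cannot be told apart.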

How the data were processed

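The authors deposited 1 spot intensity per probe and array, on a linear scale, from biotin-labelled RNA on CodeLink arrays, per the labels. From the values, array medians were 1.04 to 1.05. How spots were read, corrected for background and scaled is not stated there. A code of -9999 was treated as missing, and values at or below 0 were set to the array's smallest positive value before log2. Probes with at least 2 values per group were tested (36116 of 36227), and 3 arrays per group limit the precision. Probe names came from the platform annotation, where 21615 probes had 1 symbol.

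The 3 UCP1 and 3 control arrays were set against each other in limma 3.58.1 under R 4.3.3, by lmFit and then eBayes with an intensity trend (two-sided tests), with Benjamini-Hochberg adjustment over all tested probes and a threshold of 0.05. These functions were tested on simulated data. The 8 genes, the pathway and marker lists and the tests were chosen with earlier results of these data known. From each pathway list the text names the 4 called genes with the largest difference, or the 2 with the smallest p. It also names Lox, the 1 target gene that rose, and the 5 genes closest to Egln1 in profile. No Epas1 promoter sequence was used. Alternatives covered an offset, scaling, filters, the variance model, the replicate number as a block and each array left out.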

Additional observations from a re-analysis of the deposited data

How the results depend on the processing

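The differences of the 10 oxygen sensing probes and of Stub1, Ahr, Ube2d1, Ube2d3, Ero1a, Mxi1, Car9 and Bhlhe40 kept their direction under every alternative that tested them. Of the 9 measured genes listed with the Vhl ligase, 8 lay below 0 as reported and 3 after quantile normalization or cyclic loess. Of the 10 probes, 3 passed as reported, 1 after quantile normalization, after cyclic loess and with robust eBayes, 0 without the intensity trend, and 0 to 4 with an array left out. Calls were lost for Egln1 (-1.98) and Egln3 (-0.84) with quantile normalization, for Egln1 (-2.01) and Egln3 (-0.83) with cyclic loess, for Egln1 (-2.01), Egln3 (-1.02) and Vhl (-0.90) without the trend, and for Egln1 (-2.01) and Egln3 (-1.02) with robust eBayes. With an array left out, Egln1 ranged from -2.51 to -1.39, Egln3 from -1.30 to -0.80, Vhl from -1.08 to -0.71 and Hif1an probe 229001, which passed without UCP1 array 1, from -0.38 to -0.13. The cause of these losses was not tested. Leaving out an array leaves fewer arrays, but the count of all probes that passed, 1021 as reported, moved both ways. It was 159 without UCP1 array 3 and 1894 without UCP1 array 1 or UCP1 array 2.

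Among HIF partners and regulators, 0 fell (1 as reported) after quantile normalization, cyclic loess or without the trend, and 0 to 2 with an array left out. There 0 rose (1 as reported) on brighter probes alone, with or without the trend, where the Ahr probe is not tested, and also 0 on all probes without the trend and with the replicate block, and 0 to 1 with an array left out. Among HIF targets 0 fell and 0 rose without the trend, and 6 to 21 fell with an array left out. Lower calls among all tested probes were 0 without the trend and 93 to 1610 with an array left out.

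The replicate number showed no pairing of the arrays: deviations of same-numbered arrays from their group means correlated at -0.24, -0.01 and 0.10. Those of differently numbered arrays correlated at -0.36 to 0.35, and whether arrays pair in another way was not tested. With the replicate number as a block, 776 probes passed against 1021. Egln1, at -2.01, did not pass (limma, adjusted p = 0.0553), while Egln3 and Vhl did (adjusted p = 0.0229 and 0.0173). Dimness limits the Epas1 probe on every array, below the array median, and the Egln1 probe on UCP1 arrays 1 and 3, above 24.3% and 45.5% of probes. It also limits the Ahr probe on the control arrays, where that probe lay below the array median.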
